A study of Mus musculus with 5 samples.

Results

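Id1, Id2, Id3 and Id4 are the 4 members of the mouse Id gene family, and they were examined here among 21631 protein-coding genes on chromosomes 1 to 19 and X. The members were taken by name, and peaks were collected over each gene body, over 2 kb on either side of it and over 20 kb on either side. The family was chosen by gene name and by its H2AK119ub calls in these same libraries, in which 1 member, Id3, was known to carry the mark in knockout cells alone. These 20 kb surroundings held 6 of the 24235 peaks of wild-type H2AK119ub, 11 of the 20994 peaks of knockout H2AK119ub and 6 of the 9564 peaks of wild-type RYBP.

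The study profiled chromatin by immunoprecipitation and sequencing (ChIP-seq) in mouse embryonic stem cells of the line MPI-II, grown over feeder cells in serum with LIF and with inhibitors of MEK and GSK3. The first group was wild-type cells with an antibody against H2AK119ub, the second was DDX5 knock-out cells with the same antibody, and the third was wild-type cells with a RYBP antibody, sold under the alias DEDAF. The knockout was made in this line by targeting exon 2 of Ddx5, which encodes an RNA helicase, with a nickase form of Cas9 and a pair of guides, and was kept as a monoclonal line, so clone and genotype cannot be told apart. Each group had 1 library, the input library of each genotype was not analysed here, and RYBP in knockout cells was not analysed here. None of the differences therefore has a replicate check or a p-value, and peak lists give no RNA level with which to check the labels.

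ID proteins are helix-loop-helix proteins that lack the basic region which contacts DNA. They pair with E proteins and keep them from binding DNA with lineage factors of the basic helix-loop-helix (bHLH) class, and in embryonic stem cells their genes are known as direct targets of BMP signalling through SMAD proteins. H2AK119ub is ubiquitin on histone H2A, put there by Polycomb repressive complex 1, usually at CpG-rich promoters of silent developmental genes, and RYBP belongs to the variant kinds of this complex.

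CpG dinucleotides are a feature of promoters to which some variant Polycomb complexes are recruited, and a RYBP peak covered all 250 bases before the start of Id2, Id3 and Id4. These promoters are shown for their CpG content, since the genes share RYBP and differ in H2AK119ub. They are from RefSeq (GRCm38.p6, the assembly known as mm10), 5′ to 3′ and ending at the base before the start, with every CpG in capitals. The promoter table matched 3 of the 4 members and not Id1.
Id2 (mm10 chr12:25096093-25096342, minus strand): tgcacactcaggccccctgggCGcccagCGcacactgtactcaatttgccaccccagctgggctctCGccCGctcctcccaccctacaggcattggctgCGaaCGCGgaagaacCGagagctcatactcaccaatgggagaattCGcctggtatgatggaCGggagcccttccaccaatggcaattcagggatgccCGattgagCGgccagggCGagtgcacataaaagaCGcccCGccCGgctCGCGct
Id3 (mm10 chr4:136143572-136143821, plus strand): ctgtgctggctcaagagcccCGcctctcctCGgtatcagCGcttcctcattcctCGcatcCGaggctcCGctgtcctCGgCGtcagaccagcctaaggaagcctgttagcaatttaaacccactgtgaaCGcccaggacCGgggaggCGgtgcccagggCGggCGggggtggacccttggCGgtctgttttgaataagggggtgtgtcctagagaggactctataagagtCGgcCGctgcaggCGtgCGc
Id4 (mm10 chr13:48260866-48261115, plus strand): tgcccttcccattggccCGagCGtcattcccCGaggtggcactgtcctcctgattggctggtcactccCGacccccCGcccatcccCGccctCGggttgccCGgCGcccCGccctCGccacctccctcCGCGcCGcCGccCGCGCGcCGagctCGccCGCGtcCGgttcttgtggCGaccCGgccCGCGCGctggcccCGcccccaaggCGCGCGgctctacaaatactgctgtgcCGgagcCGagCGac

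Id4 had 35 CpGs in these 250 bases and a GC content of 75.6%, and 97.0% of the 32851 promoters in the RefSeq table had fewer CpGs. Id2 and Id3 had 18 CpGs each and a GC content of 62.8%, above 78.3% of promoters by CpG count. The median promoter had 6 CpGs. The most CpG-rich of the 3 promoters, that of Id4, thus belonged to the gene with no H2AK119ub peak in either genotype. Of the 250 bases, wild-type H2AK119ub peaks covered none at any of the 3 genes, and knockout peaks covered 132 at Id3 and none at Id2 or Id4.

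In all, 8 short motifs were searched on both strands of the same 250 bases, and a match is only a description of the letters. GGGCGG, the GC box, matched 1 time at Id2, 2 times at Id3 and 5 times at Id4, and 32.7% of all promoters hold it. GGCGCC, a GC-rich motif bound by SMAD proteins, matched 1 time at Id2 and 1 time at Id4, against 9.59% of promoters. CAGAC, the other SMAD motif, matched at Id3 alone, 167 and 68 bases before the start, and is held by 42.2% of promoters. CCAAT matched 3 times at Id2 and 2 times at Id4 and is held by 33.8%. TGACG, the core of the CREB site, matched 1 time at Id3 and 1 time at Id4, against 17.8%. CANNTG, the E-box to which bHLH factors bind, matched 1 time at Id2 and not at Id3 or Id4, while 66.2% of promoters hold it. Its form CACGTG (6.02% of promoters) and TATAAA (12.4%) matched none of the 3. Among these matches the 2 GGGCGG of Id3 overlap by 2 bases, and its TGACG overlaps a CAGAC by 2 bases.

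The Id genes showed 4 different combinations of the 3 libraries. Peaks over the gene body or its 2 kb flanks were found at Id1 in both H2AK119ub libraries but not in RYBP, at Id2 in all 3 libraries, at Id3 in knockout H2AK119ub and RYBP, and at Id4 in RYBP alone. Widened to 20 kb on either side, each library had a peak at 3 of 4 members, where 38.5% of all genes had one for wild-type H2AK119ub, 33.8% for knockout H2AK119ub and 49.7% for RYBP. Over body and flanks, wild-type H2AK119ub marked 2 of 4 members, where 27.9% of all protein-coding genes were marked by the same rule. Knockout H2AK119ub marked 3 of 4, against 23.6% of all genes. RYBP was present at 3 of 4, against 37.6%. With 4 genes these counts are a description of the family.

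Among genes at most 10 kb long, as all 4 members are, the shares were 24.7%, 19.7% and 25.9% in the same order. Id1's combination, the mark in both genotypes without RYBP, occurred at 4.94% of all genes and 4.46% of those at most 10 kb long. Id2's, the mark in both with RYBP, occurred at 15.7% and 12.8%. Knockout mark without wild-type mark, which was known of Id3 when it was chosen, occurred at 3.0% of all genes (1.45% with peaks of at least 1 kb alone), and together with RYBP at 1.69% of all and 0.995% of the shorter genes. Id4's combination, RYBP with no H2AK119ub in either genotype, occurred at 16.4% and 8.71%. For reference, 20.7% of all genes had the mark in both genotypes and 7.2% had it in wild-type cells alone.

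**Figure D1:**
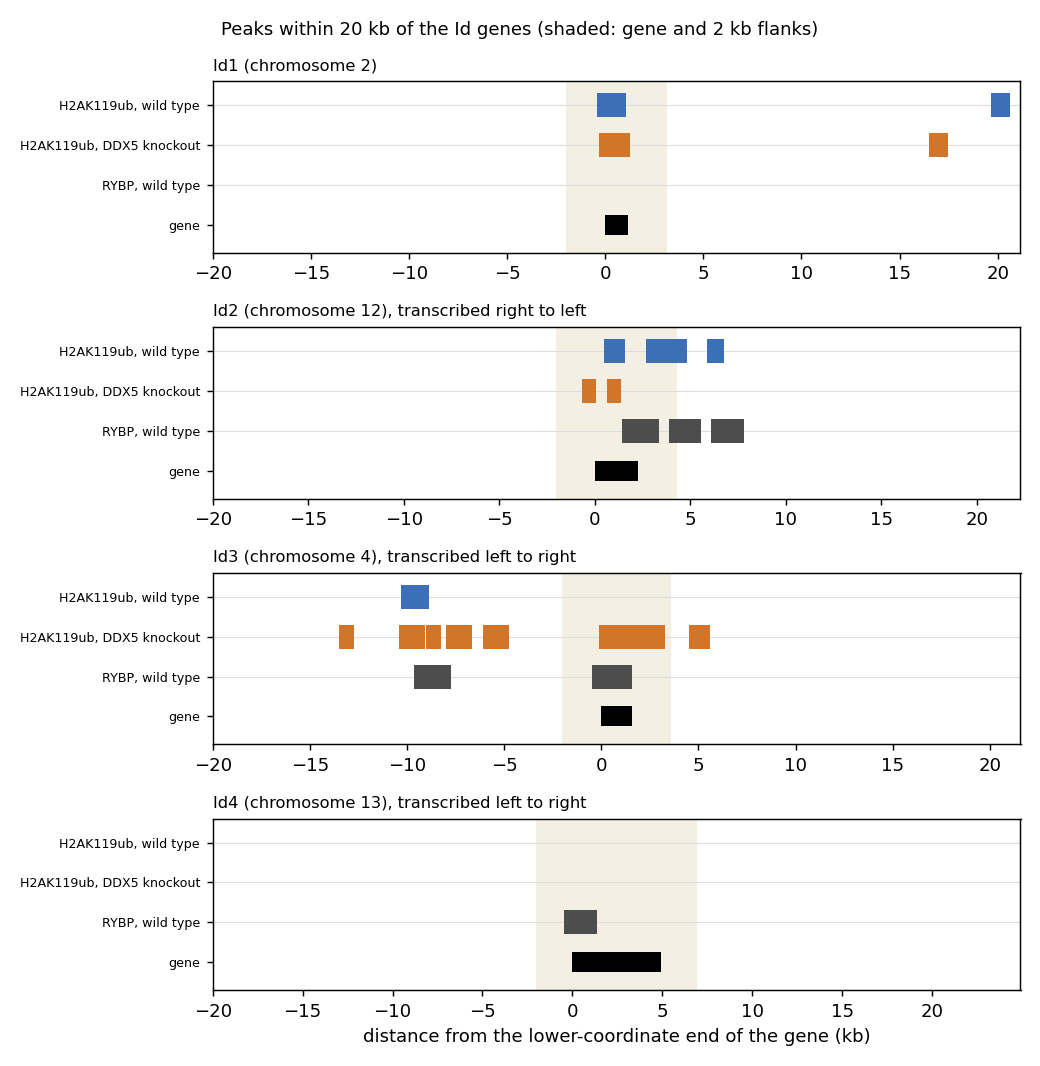
Peaks of the 3 libraries within 20 kb of each Id gene, drawn as boxes at their distance in kb from the lower-coordinate end of the gene. The gene is the black box, and the shading marks the gene with its 2 kb flanks. Peaks over Id1 coincide in both genotypes, the wild-type peaks beyond the upper end of Id2 have no knockout counterpart, Id3 has 7 knockout peaks against 1 in the wild type, and Id4 has a RYBP peak alone.

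Id1 (gene ID 15901, chromosome 2, 152736251 to 152737410, 1160 bp long) had nearly the same H2AK119ub peak in both genotypes. The wild-type peak ran from 152735814 to 152737305, a width of 1492 bp, and the knockout peak from 152735954 to 152737499, a width of 1546 bp. They shared 1352 bp. The mark covered 90.9% of the gene body in wild-type and 100% in knockout cells, so at Id1 there was no loss of covered length in the knockout library, whereas the ratio of knockout to wild-type covered length was 0.67 over the genome and 0.61 over chromosome 2.

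No RYBP peak lay at Id1, and the nearest was 29593 bp away, from 152705516 to 152706658, at H13, which encodes the signal peptide peptidase. The only other H2AK119ub peaks within 20 kb were 1 of 994 bp in the wild type, 18486 bp beyond the gene, and 1 of 938 bp in the knockout, 15353 bp beyond it. These did not overlap each other. Both lay in the gene or flanks of Cox4i2, a cytochrome oxidase subunit gene. Of the 4 protein-coding neighbours within 100 kb, 3 were marked in the wild type and 1, Cox4i2, in the knockout. The shares of all genes were 27.9% and 23.6%, and 4 neighbours are too few to set against them. H13 had 1418 bp and Bcl2l1, which encodes an inhibitor of apoptosis, had 158 bp in the wild type, with 0 bp at each in the knockout. The 158 bp at Bcl2l1 are the edge of the wild-type peak that also marks Cox4i2, so these neighbours rest on 2 wild-type peaks. Neither of these peaks overlapped a knockout peak, and Cox4i2 counted as marked in the knockout through a separate peak.

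Id2 (gene ID 15902, chromosome 12, 25093799 to 25096092, 2294 bp long, minus strand) had the mark in both genotypes, but at different places. The wild type had a peak of 1080 bp inside the gene, from 25094301 to 25095380, another of 2148 bp before its start, from 25096485 to 25098632, and 1 more of 918 bp farther upstream, from 25099671 to 25100588. In the knockout a peak of 769 bp, from 25094426 to 25095194, lay wholly within the wild-type peak inside the gene. A second knockout peak, of 732 bp from 25093146 to 25093877, lay at the far end of the gene, where the wild type had none. Neither upstream wild-type peak had a counterpart in the knockout.

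Over Id2 and its 2 kb flanks the mark covered 2688 bp in wild-type cells and 1501 bp in knockout cells. In the 2 kb before the start it was 1608 bp against 0 bp, and in the gene body 1080 bp against 848 bp. In the 2 kb past the far end it was 0 bp against 653 bp. Within 20 kb the covered length was 4146 bp and 1501 bp, a ratio of 0.36, while the ratio over chromosome 12 was 0.63. The mark was sparse around this gene: within 1 Mb on either side there were 6 wild-type and 3 knockout peaks, so this ratio rests on few peaks.

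RYBP formed a run of 3 peaks over the start of Id2 and upstream of it, from 25095238 to 25097148 (1911 bp), from 25097678 to 25099350 (1673 bp) and from 25099864 to 25101609 (1746 bp). All 3 overlapped wild-type H2AK119ub, over 807, 955 and 725 bp, and none overlapped knockout H2AK119ub. The upstream part of Id2 thus held RYBP and the mark together in wild-type cells, and the knockout peaks lay in the gene body and past its far end. The widths of both knockout peaks, 769 and 732 bp, were small for that library, whose median was 1083 bp, and 17.7% of its peaks were narrower than the smaller of them. With peaks of at least 1 kb alone, Id2 had no knockout mark. Kidins220, the 1 protein-coding neighbour within 100 kb, had no peak of any library.

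**Figure D2:**
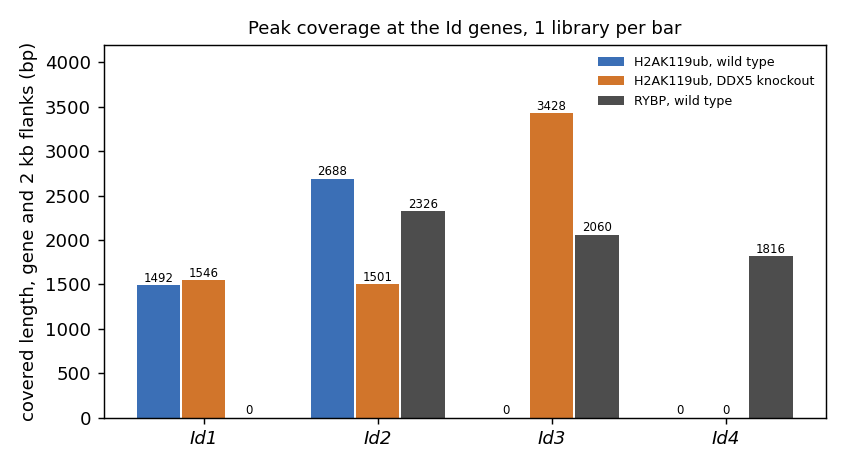
Covered length in bp over each Id gene with its 2 kb flanks, with 1 bar per library and no error bars because each group had 1 library. The mark covered 1492 and 1546 bp at Id1, 2688 and 1501 bp at Id2, 0 and 3428 bp at Id3, and 0 bp in both genotypes at Id4.

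Id3 (gene ID 15903, chromosome 4, 136143822 to 136145392, 1571 bp long, plus strand) lay in a stretch where knockout cells had more H2AK119ub peaks than wild-type cells. The knockout peak over the gene ran from 136143690 to 136147117, that is from 132 bp before its start to 1725 bp past its end, and 94.6% of the knockout library's peaks were narrower. The wild type had 0 bp over the gene and its flanks and its nearest peak ended 8875 bp upstream. RYBP was present in wild-type cells over the whole gene, from 136143359 to 136145418, a width of 2060 bp, of which 1729 bp lay within the knockout H2AK119ub peak. RYBP therefore occupied this gene in wild-type cells without a called H2AK119ub peak there.

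Upstream of Id3 both genotypes shared 1 marked site. The wild-type peak from 136133535 to 136134947, a width of 1413 bp, was overlapped over 1375 bp by 2 knockout peaks, of 1362 and 791 bp, and a RYBP peak of 1897 bp, from 136134201 to 136136097, overlapped the mark there in both genotypes. Around it the knockout had further peaks of 795, 1337 and 1329 bp, and beyond the gene 1 of 1057 bp. Within 20 kb of Id3 the mark covered 1413 bp in 1 peak in the wild type and 10099 bp in 7 peaks in the knockout. Of these 7 peaks, 2 overlapped wild-type H2AK119ub and 4 overlapped RYBP, counts given without the shares over all peaks, which were not computed.

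The excess reached farther than 20 kb. Within 100 kb of Id3 the wild type had 2 peaks and 3973 bp, and the knockout had 17 peaks, from 542 to 3428 bp wide, and 21755 bp. All 4 RYBP peaks of this stretch overlapped knockout H2AK119ub and 2 of them overlapped wild-type H2AK119ub. Among these 17, 3 overlapped wild-type H2AK119ub, 6 overlapped RYBP and 11 overlapped neither. Overlap shares over all peaks of each list were not computed, so these overlap counts describe this stretch alone. E2f2, which encodes a cell cycle transcription factor, had 865 bp and Asap3, a GTPase-activating protein gene, 604 bp in the knockout alone, and Rpl11, a ribosomal protein gene, had no peak. The peaks at E2f2 and Asap3 were narrower than the knockout median of 1083 bp. Of the knockout peaks, 7.3% were narrower than that at Asap3. With peaks of at least 1 kb alone, neither gene had a knockout mark. From 100 kb out to 1 Mb on both sides the knockout covered less, with 247957 bp for wild-type and 162585 bp for knockout cells, a ratio of 0.66. Over chromosome 4 the ratio was 0.57.

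**Figure D3:**
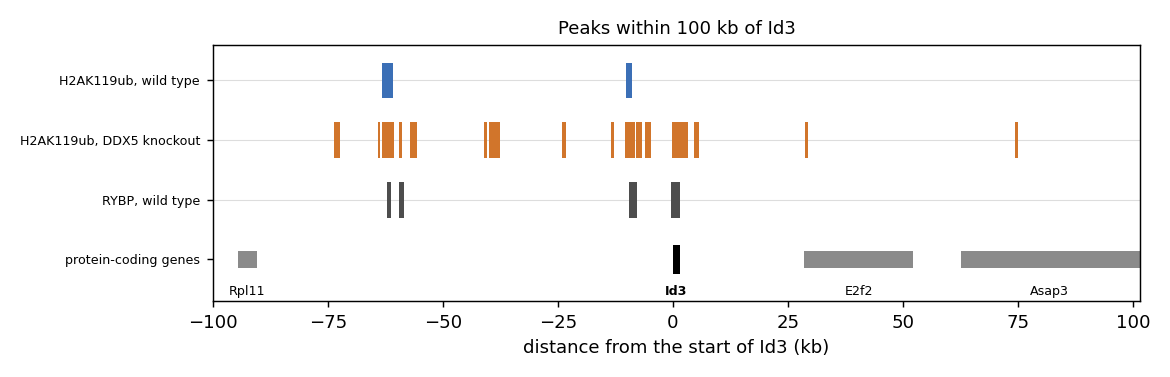
Peaks of the 3 libraries within 100 kb of Id3, at their distance in kb from its start, with protein-coding genes as boxes at the bottom. The knockout has 17 H2AK119ub peaks and the wild type 2, and all 4 RYBP peaks overlap a knockout peak.

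The difference at Id3 was also placed among all genes, as a description with no test, since Id3 was known for this contrast. Knockout minus wild type within 100 kb was 17782 bp at Id3, −2174 bp at Id1, −3621 bp at Id2 and 0 bp at Id4. A difference above 0 was seen at 12.0% of genes, and 27 of 21631 genes, Id3 included, had a difference at least as high as that of Id3. Of these 27, 22 lay on chromosome 6, where the knockout list covered 1.36 times the wild-type length. The 5 on other chromosomes were Ntn1, Efcab6, Cdh4, Gadd45g and Id3. On chromosome 4 it was Id3 alone of 1328 genes. Windows of long genes are longer, and among the 7742 genes at most 10 kb long 4 had such a difference, 2 of them off chromosome 6. At Gadd45g, a stress-response gene of 1801 bp on chromosome 13, the mark went from 58914 to 77377 bp, and at Id3 from 3973 to 21755 bp, so the stretch around Id3 began from a low wild-type level.

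**Figure D4:**
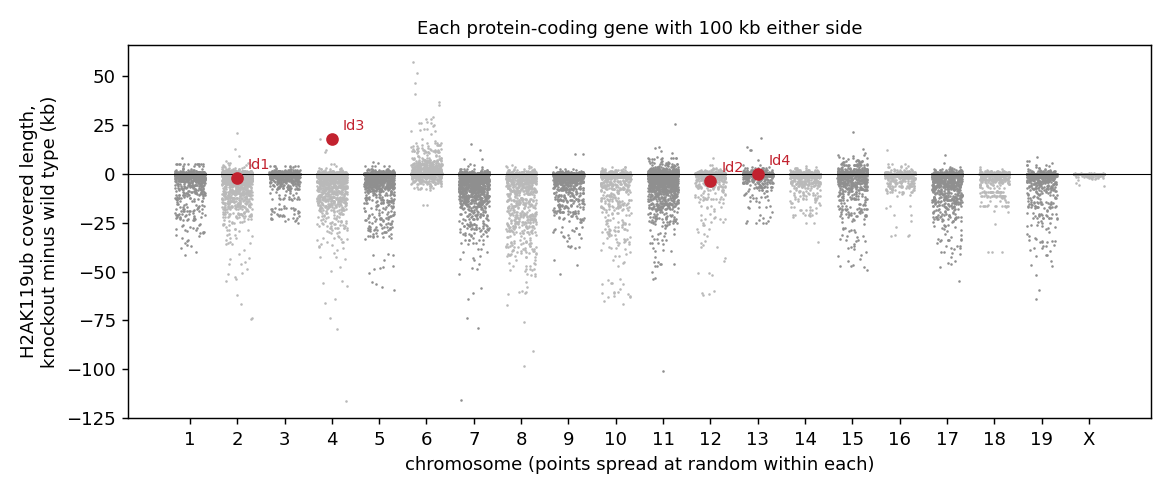
H2AK119ub covered length in the knockout minus that in the wild type, in kb, for each of 21631 protein-coding genes with 100 kb on either side (1 point per gene), by chromosome. The Id genes are in red, and Id3, at 17782 bp, is the highest of the 1328 genes of chromosome 4, while most genes above it lie on chromosome 6.

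Id4 (gene ID 15904, chromosome 13, 48261116 to 48266028, 4913 bp long, plus strand) had RYBP at its start and no H2AK119ub. The RYBP peak, from 48260666 to 48262481, was 1816 bp wide and began 450 bp before the start. It was the 1 peak of any library within 100 kb of the gene. The nearest H2AK119ub peaks of both genotypes lay at 1 site, 359691 bp away in the wild type (1510 bp wide) and 359766 bp away in the knockout (1212 bp wide). No protein-coding gene lay within 100 kb, and the lncRNA gene A330033J07Rik overlaps Id4 and its RYBP peak. Within 1 Mb the mark covered 66162 bp in wild-type and 43043 bp in knockout cells, a ratio of 0.65, against 0.78 over chromosome 13.

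Where RYBP was present it lay over the start of the gene at all 3 members, and its widths, 1911, 2060 and 1816 bp for the peaks over the starts of Id2, Id3 and Id4, were alike and all above the library's median of 1634 bp. H2AK119ub differed more in place. The knockout peaks at Id1 and Id3 each covered 100% of the gene body, and the wild-type peak at Id1 covered 90.9%. These knockout peaks reached 89 bp past the upper end of Id1 and 1725 bp past that of Id3. At Id2 the mark covered 47.1% of the body in wild-type and 37.0% in knockout cells. Id3 had the widest peak, at 3428 bp. At the edges of the windows, the RYBP peak nearest inside the 2 kb flanks was 1586 bp from Id2, and the nearest peak outside them was the knockout peak 2963 bp from Id3. The peak nearest inside 20 kb was the wild-type peak 18486 bp from Id1, and the nearest outside was the knockout peak 23308 bp from Id3.

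Genes with the most similar pattern were sought among protein-coding genes whose length and that of the member differed by a ratio no smaller than 0.8, by the distance between the covered lengths in the 3 libraries. Predicted genes and genes within 100 kb of the member were left out of this search. For Id1 these were Slurp1 (1781 bp of wild-type mark, 1730 bp of knockout mark and 0 bp of RYBP), Npw and Nanos2, at distances of 342.6, 571.0 and 808.9 bp. For Id2 they were B3gnt9 (2768, 1464 and 2412 bp), C2cd4d and Gadd45b, at 123.1, 356.0 and 575.5 bp. Id4 had close matches in Avpi1, Edf1 and Dazap2, at 12.0, 15.0 and 17.0 bp. Id3 had none close: Ramp2, Hoxc12 and Rprm were the nearest, at 1935.8, 1944.4 and 1997.7 bp, and of them Rprm alone was unmarked in the wild type, with 1435 bp in the knockout and 2197 bp of RYBP. The likeness rests on 3 libraries. It uses the H2AK119ub values for which Id3 was known, so the lack of close matches to Id3 is no separate result. The search held 480 genes for Id3 and 1434 for Id4. Id4 had no mark in either genotype, so its matches differed from it by RYBP length alone. The distances therefore do not compare the members.

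The partners and upstream regulators of the Id genes were described from 7 lists of 51 genes in all. Of the 3 E proteins, the dimer partners of ID proteins, 1 was marked in wild-type cells and 0 in knockout cells, and 1 had RYBP, counts too small to set against the shares of all genes. Tcf3 had 2176 bp in wild-type cells and 0 bp in knockout cells, Tcf12 had 1656 bp of RYBP alone and Tcf4 had no peak. Lineage bHLH factors, whose action ID proteins hold back, carried the mark at 15 of 16 members in wild-type and 14 in knockout cells, with RYBP at 13. Among all genes the shares were 27.9%, 23.6% and 37.6% in the same order. Tal1, a blood regulator, had 10400 and 10324 bp, Hand1, a trophoblast and heart regulator, 7435 bp in each, and Olig2, an oligodendrocyte and motor neuron regulator, 7043 and 7122 bp. Myf5, a myogenic factor, had 707 bp in the wild type alone, and Myog had no peak. The Hes and Hey repressors, bHLH targets of Notch signalling, were marked at 5 of 5 in both genotypes and held RYBP at 5 of 5, among them Heyl (12121 and 8664 bp), Hes5 (4993 and 5069 bp) and Hey1 (3169 and 2410 bp).

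BMP ligands were marked at 5 of 6 in each genotype, with Bmp7 at 28765 bp in wild-type and 7903 bp in knockout cells, Gdf6 at 8836 and 5339 bp and Bmp6 at 5528 and 4656 bp, and Bmp5 without a peak. Their antagonists were marked at 4 of 5 in each genotype and all 5 had RYBP: Chrd had 3904 and 2695 bp, Fst 2724 and 3166 bp and Grem1 2545 and 1124 bp. The receptors had the mark at 3 of 8 in wild-type and 4 in knockout cells, with RYBP at 6. Acvrl1 had 11764 and 12347 bp, Acvr2b 3751 and 2562 bp, Bmpr1b 757 and 1443 bp, and Eng, a co-receptor of endothelium, 0 and 624 bp. Genes for SMADs and the Smurf ligases that degrade them were marked at 2 of 8 and 1 of 8, with RYBP at 6. In wild-type cells the receptors (37.5%) and the SMADs and Smurfs (25%) thus lay near the 27.9% of all genes, while RYBP was at 75% of each list against 37.6%. Of the SMADs, the inhibitory Smad6 had 5674 and 3408 bp, and the BMP effector Smad1 had 1975 bp in the wild type alone.

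Over the 7 lists, 32 of 51 genes were marked in both genotypes, against 20.7% of all genes. Marked in wild-type cells alone were 3 (7.2% of all genes), marked in knockout cells alone 1 (3.0% of all genes), and 9 had RYBP with no mark, the combination of Id4 (16.4% of all genes), so that these last 3 counts lay near or below the shares of all genes. The median covered length of lineage bHLH factors was 4875 bp in wild-type and 4655.5 bp in knockout cells, while over all protein-coding genes it was 0 bp in each. Eng was the 1 gene of these lists with Id3's combination of H2AK119ub calls, and it had no RYBP. Its knockout call rested on 624 bp in a gene of 36075 bp, against 3428 bp at Id3. Lists of long genes such as the receptors have a larger chance of a peak, since the whole body counts.

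**Figure D5:**
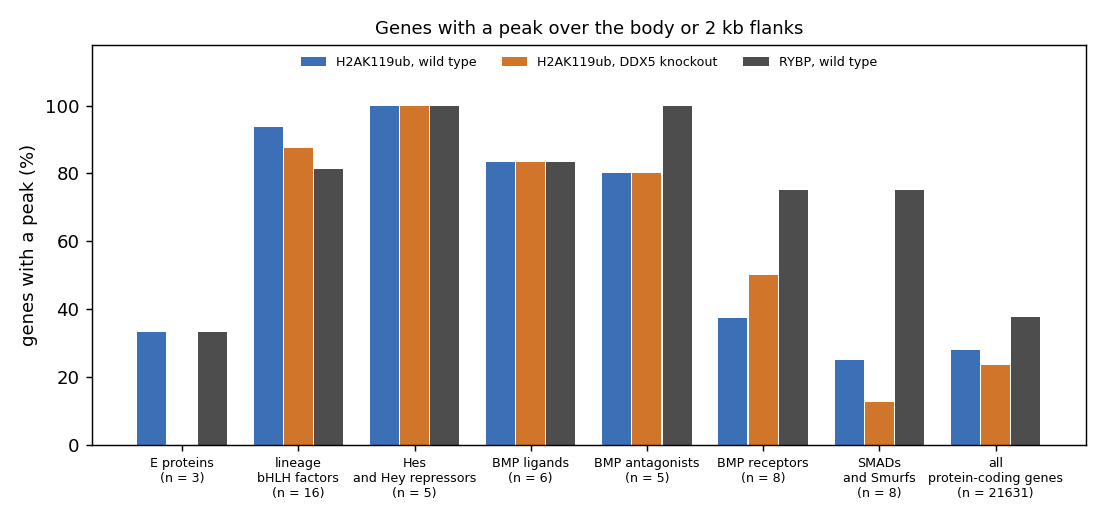
Share of genes, in percent, with a peak over the body or 2 kb flanks in each library, for the 7 lists and for all 21631 protein-coding genes. Lineage bHLH factors, Hes and Hey repressors, BMP ligands and BMP antagonists lie above the 27.9%, 23.6% and 37.6% of all genes in each library. These lists hold 5 to 16 genes, so their shares are a description only. BMP receptors are at 37.5%, 50.0% and 75%, SMADs and Smurfs at 25%, 12.5% and 75%, and the 3 E proteins at 33.3%, 0% and 33.3%.

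Of 6 marker genes of embryonic stem cells, 1, Esrrb, was marked in each genotype, and 2 had RYBP. Of 5 marker genes of fibroblasts, the usual feeder cells, Col1a1, Thy1 and Pdgfrb were marked in each genotype and 2 of the 5 had RYBP. The shares of all genes were 27.9% and 23.6% for the mark and 37.6% for RYBP, and these lists are too short to be read against them. Peak lists give no expression, and the part of feeder chromatin in these libraries was not tested.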

How the data were processed

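The deposited files are 3 peak lists, 1 per library, with positions in mm10, and Bowtie2 2.2.5 and MACS 1.4 are named, per the submitters' processing notes. The sources used here give neither the peak threshold nor the controls. The score column that the authors deposited holds 0 for every peak, so no height or p-value was used, and depth is unknown. Lower depth or enrichment alone can make peaks fewer and narrower: the wild-type and knockout H2AK119ub lists covered 45.88 and 30.57 Mb, with median widths of 1360 and 1083 bp. Starts were converted to positions counted from 1.

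Genes came from RefSeq (GRCm38.p6), with strand for Id2, Id3 and Id4 from its promoter table. Genes counted as marked had a peak sharing at least 1 bp with their body or 2 kb flanks. Covered lengths were computed with Python 3.11.15, numpy 2.4.6 and pandas 2.3.3, and the code was tested on simulated peaks. The members and lists were chosen with earlier results of these data known. Named were the 4 members, protein-coding neighbours within 100 kb that carry a peak, the 3 genes most alike to each member, and in each list up to 3 genes per class (wild type alone, knockout alone, both) with the most covered length. Tcf4, Tcf12, Myog, Bmp5, Kidins220, Rpl11, A330033J07Rik and the 4 genes set beside Id3 were named after their values were seen. Alternatives were other windows, peak widths, merging and overlap.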

Additional observations from a re-analysis of the deposited data

How the results depend on the processing

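The 4 counts of members with a peak stayed within 1.5 times under all 7 alternatives (flanks of 1 kb and 5 kb, windows at both gene ends, a minimum peak width of 1 kb, the widest peaks in equal number, merging within 2 kb, and 50% of a peak in the window). Id1, Id3 and Id4 had the same calls in each. Id2 had a covered length of 0 bp in the knockout with peaks of at least 1 kb, which leaves out both its knockout peaks, so it was then marked in the wild type alone and 2 members in place of 3 were marked in the knockout. With peaks of at least 1 kb the genes marked in the knockout alone were 313 in place of 648 (1.45% in place of 3.0%), and those in the wild type alone, the class Id2 then joins, 1765 in place of 1558 (8.16% in place of 7.2%). In the wild type Id2 had 1688 bp with flanks of 1 kb and 4146 bp with flanks of 5 kb, and its RYBP had 4813 bp with flanks of 5 kb, since peaks begin or end there. The other 80 of 84 covered lengths stayed within 1.5 times, but many of them could not move, so this tally is no measure of stability. The 50% rule changes calls and not covered lengths. Windows at both gene ends equal the main window at Id1, Id2 and Id3. Equal numbers leave the knockout and RYBP lists unchanged. Chosen after seeing the data, the lengths within 100 kb of Id3 were 3973 bp and 16064 bp with peaks of at least 1 kb, 3973 and 21755 bp with equal numbers, and 3973 and 27724 bp with merging. No paired analysis was possible because each group has 1 library and the labels give no replicate numbers.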
